A study of Mus musculus with 12 samples.

Results

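The cytosolic ribosome of mouse liver was followed through 76 genes for its proteins, 30 of the small subunit (Rps genes) and 46 of the large subunit (Rpl and Rplp genes). They were chosen by symbol: Rps, Rpl or Rplp followed by a number, with at most an a, x or y and a further digit after it. All 76 symbols that fit stood above 1 TPM (a transcript abundance scaled for length and to a fixed total per library) in every library, among 12120 of 31253 listed symbols that passed 1 TPM in at least 3 of 12 libraries. Symbols of another form, such as Rpsa, Fau and the gene for Rack1, were left out of the 76 and are given apart.

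RNA came from whole livers of male C57BL6 mice in 4 groups of 3 libraries each. Wild-type (WT) mice and mice with the CUGBP1 s302a knock-in, an alanine in place of a serine in the RNA-binding protein CUGBP1 (gene Celf1), were either untreated or given diethylnitrosamine (DEN), which causes liver cancer in rodents, at 3 weeks of age and a dose of 50 µg per g of body weight. All were killed at 33 to 41 weeks of age per their age field, and livers were collected 30 to 38 weeks after the injection per the protocol field. The labels do not say whether a piece of tumour or of surrounding liver was taken after DEN, nor whether the libraries come from different animals. The p-values therefore describe the spread between libraries, which may be technical. The knock-in is called S302A below.

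Each ribosome holds a single copy of nearly every one of these proteins together with ribosomal RNA, and cells keep the output of the many genes in step. The mRNAs of vertebrate ribosomal proteins begin with a C followed by an unbroken run of C and T (U in the RNA), the terminal oligopyrimidine or TOP tract, through which mTOR and the protein LARP1 set their translation. In hepatocytes, which make most plasma proteins, ribosomal protein mRNAs are among the abundant messages.

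The letters at the annotated start sites were searched for that tract. RefSeq promoter entries (GRCm38.p6, the build also called mm10) matched 56 of the 76 genes with 66 start sites. A window of 40 bases, 20 on each side of the start, was searched on the gene's strand only for 3 short pyrimidine words, which can overlap one another. The word CTTTC was found in 18 of 66 member windows (27.3%) and in 5.49% of all 32851 windows in the table. The word CCTTT was found in 12 member windows (18.2%) and in 4.57% of all. The word TCTTT was found in 13 member windows (19.7%) and in 4.84% of all. A run of at least 5 C and T lying over the start was found in 20 member windows (30.3%) and in 10.1% of all, and the other 46 member windows had none. The first 7 sequences below have such runs, written in capitals with the start at base 21, which is a C in Rpl35, Rplp2, Rps6 and Rps27 and a T in Rpl7a, Rpl27a and Rpl34; the last 2, from genes that come up again in the DEN comparison, have no run of C and T over the annotated start, which says only that these letters are not in this window.
Rpl7a (chr2:26910787-26910826, plus strand): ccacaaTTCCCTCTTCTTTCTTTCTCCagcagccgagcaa
Rpl27a (chr7:109519175-109519214, plus strand): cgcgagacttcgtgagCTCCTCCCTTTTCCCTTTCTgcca
Rpl34 (chr3:130730318-130730357, minus strand): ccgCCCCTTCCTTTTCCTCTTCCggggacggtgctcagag
Rpl35 (chr2:39005112-39005151, minus strand): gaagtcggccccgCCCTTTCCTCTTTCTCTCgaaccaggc
Rplp2 (chr7:141447631-141447670, plus strand): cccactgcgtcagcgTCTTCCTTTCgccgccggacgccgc
Rps6 (chr4:86857348-86857387, minus strand): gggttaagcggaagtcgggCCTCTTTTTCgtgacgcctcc
Rps27 (chr3:90213629-90213668, minus strand): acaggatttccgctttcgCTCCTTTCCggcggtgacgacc
Rplp0 (chr5:115559447-115559486, plus strand): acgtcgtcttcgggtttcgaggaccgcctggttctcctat
Rpl41 (chr10:128549149-128549188, minus strand): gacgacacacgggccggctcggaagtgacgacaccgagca

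S302A DEN replicate 3 stood apart from the other 11 libraries and enters every comparison with S302A livers after DEN. Since the 4 groups share 1 estimate of spread, it also enters the tests of the other comparisons. It had 13083 genes above 1 TPM, while the other libraries had 10839 to 11653. The top 20 genes took 23.8% of its TPM and 35.9% to 47.6% elsewhere, and its median-of-ratios scaling factor was 1.69 against 0.820 to 1.18. Hepatocyte markers (Alb, Apoa1, Apob, Ttr, Serpina1a, Cyp3a11, Cps1 and Hnf4a) were present in all 12 libraries, with sums of 41238 to 86462 TPM. Of these 8, Cyp3a11, a drug-metabolising enzyme, fell after DEN on average (-2.51, adjusted p = 0.0221 in limma), and the other 7 did not pass. In S302A DEN replicate 3 the 6 macrophage markers summed to 432 TPM (58.6 to 151 in the other 11 libraries), the 5 stellate markers to 40.6 TPM (5.85 to 10.03) and the 6 proliferation markers to 114 TPM (25.3 to 39.9), where a gene not detected counts as 1 TPM because the deposited values go no lower. The lymphocyte markers summed to 18.3 TPM (at most 8.11) with Cd79a at the floor, and the cholangiocyte markers to 17.3 TPM (at most 7.24) with Krt7 at the floor. The sinusoidal endothelial markers (48.1 TPM, 23.4 to 53.4 elsewhere) and the erythroid markers (1734 TPM, 1170 to 8928 elsewhere, the highest in S302A untreated replicate 1) were inside the range of the other libraries. The part of these cells in the ribosomal protein levels was not tested, and in whole liver fewer cells of a type cannot be told apart from less RNA per cell. Results for S302A livers after DEN are given with this library and without it.

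The 76 genes were expressed at unequal levels, from 27.5 to 1273 TPM in the mean of 12 libraries, with a median of 503 TPM against 7.31 TPM for all 12120 genes. Rps29, a small zinc-binding protein of the small subunit head, was highest (1273 TPM), followed by Rpl41 (1246 TPM), the member with the shortest annotated coding sequence, the stalk protein gene Rplp1 (1217 TPM), Rpl10 (1098 TPM), whose protein is among the last to join the large subunit, and Rps27 (902 TPM). At the other end were Rps15a (27.5 TPM), Rpl22 (63.7 TPM), Rpl18 (80.5 TPM), Rps3 (155 TPM) and Rpl21 (169 TPM). Between them, 69 of the 76 genes lay from 100 to 1000 TPM. The median was 547 TPM over small subunit genes and 463 TPM over large subunit genes. TPM is scaled by transcript length so that levels of different genes can be set side by side. Mean TPM was still lower in members with longer annotated coding sequences (Spearman rank correlation -0.40), and whether the scaling sufficed was not tested.

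These levels are uncertain where a gene has near copies. Of the 76 coding sequences, 70 had at least 1 near copy among annotated mouse transcripts (GENCODE M21; at least 95% identity over at least 80% of the length), 546 copies in all, and Rpl21 alone had 57. How the authors' index treated such copies is not given in the sources used here. For 9 genes a near copy was listed in the files under its own symbol: BC004004, 98.5% identical to Rpl21, had a mean of 34.0 TPM, and Rps15a-ps6, 98.7% identical to Rps15a, had 11.8 TPM. Each of the other 8 listed copies had a mean of 3.11 TPM or less.

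Summed over the 76 genes, ribosomal protein transcripts made up 2.90% to 4.14% of all TPM in 11 libraries and 7.88% in S302A DEN replicate 3. The untreated wild-type libraries held 4.01%, 2.90% and 3.50%. The wild-type libraries after DEN held 3.84%, 4.02% and 4.05%. The untreated S302A libraries held 3.17%, 3.07% and 3.55%, and those after DEN held 4.14%, 3.53% and 7.88%. The DEN and untreated ranges overlapped in both genotypes, in S302A because replicate 2 after DEN (3.53%) lay just under replicate 3 of the untreated livers (3.55%). The group means were 3.47% ± 0.555, 3.97% ± 0.111, 3.26% ± 0.249 and 5.18% ± 2.35 (SD, n = 3 each, in the order named), the last being 3.84% without replicate 3.

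Scaling each library by its median-of-ratios factor, which takes the typical gene as constant, gave other values. The scaled sums were 37098 ± 3379 and 37789 ± 4054 in untreated and DEN wild-type livers, so the wild-type difference was small beside the spread. They were 37462 ± 4580 and 44753 ± 2266 in untreated and DEN S302A livers, and the 3 DEN libraries of S302A (43063 to 47327) then lay above all other libraries, of which the highest was S302A untreated replicate 3 at 42738. S302A DEN replicate 3 was still the highest library on this scale, at 47327 against 43868 and 43063 for replicates 2 and 1 of its group, but was closer to them than in percent of all TPM.

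The balance of the subunits stayed within a narrow range. The summed TPM of the 30 small subunit genes was 0.699 to 0.745 times that of the 46 large subunit genes in the 12 libraries, with group means of 0.727 ± 0.0151 in untreated wild type, 0.727 ± 0.0251 after DEN, 0.717 ± 0.00709 in untreated S302A and 0.722 ± 0.00470 after DEN (SD, n = 3 each). The library whose sum was highest, S302A DEN replicate 3, was inside this range.

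**Figure D1:**
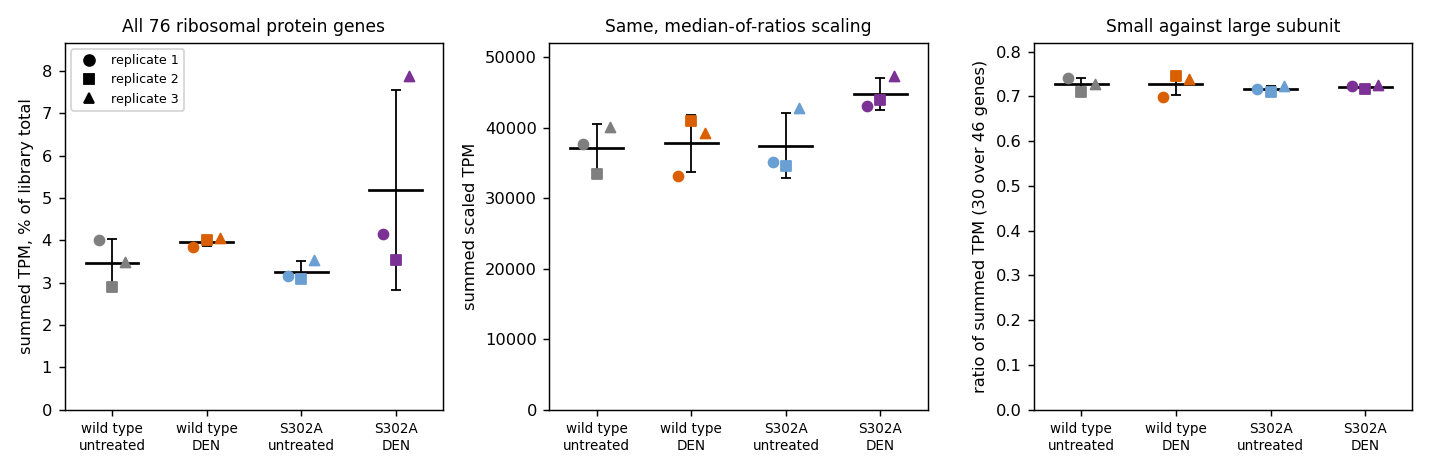
Summed level of the 76 ribosomal protein genes by library, as a percent of all TPM (left) and after median-of-ratios scaling (middle), and the ratio of small to large subunit sums (right). Points are libraries, bars are group means and error bars are SD (n = 3); S302A DEN replicate 3 lies at 7.88% on the left, and the ratio lies between 0.699 and 0.745 in every library.

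From library to library the genes moved as a block. On the log2(TPM + 1) scale, the first principal component held 93.7% of the variance of the 76 genes over 12 libraries and 79.6% over the 11 without S302A DEN replicate 3, against 49.1% and 30.1% for all genes and 78.3% and 63.7% for the 76 mitochondrial ribosomal protein genes. All of these share the scale of their library. S302A DEN replicate 3 was the highest of the 12 libraries for 76 of 76 genes, from 1.52 times the mean of the other 2 libraries of its group for Rps29 to 2.99 times for Rps4x, with a median of 2.05 times. Of all genes tested, 87.0% were above both other libraries of the group there, and the median difference on the log2 scale was 0.79 over all genes and 1.04 over the 76. WT untreated replicate 2 was the lowest of the 12 libraries for 57 of the 76 genes. It was below both others of its group for 75, against 42.1% of all genes, with a median difference of -0.35 over the 76 and -0.12 over all genes. WT untreated replicate 1 was above both others of its group for 71, against 68.6% of all genes, with medians of 0.33 and 0.24.

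The likeness of each gene to the rest was measured as its Pearson r with the mean of the other 75 over the 11 libraries other than S302A DEN replicate 3. All genes of a library share its scale. The median r was 0.907. The closest followers were Rpl10 (0.983), Rpl24 (0.980), Rps18 (0.980), Rpl34 (0.977) and Rpl13 (0.976). The least alike were Rps2 (0.574), Rpl22 (0.591), Rpl39 (0.685), Rpl30 (0.705) and Rpl41 (0.751). With the group means removed, r was 0.195 for Rps2, 0.577 for Rpl41, 0.797 for Rpl22, 0.791 for Rpl39 and 0.794 for Rpl30.

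**Figure D2:**
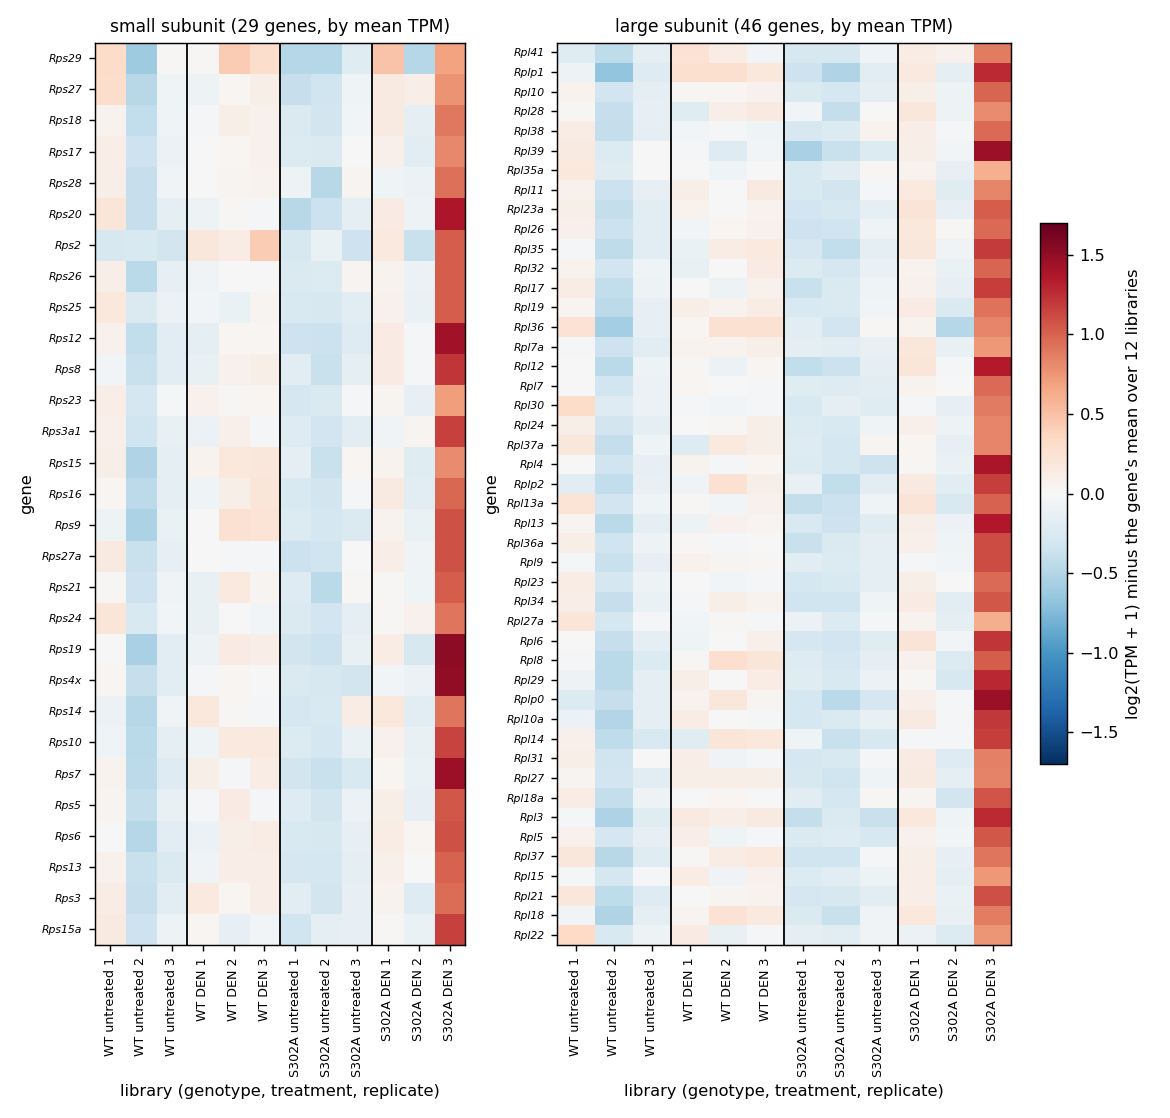
Level of 75 of the 76 genes in each library, as log2(TPM + 1) minus the gene's mean over 12 libraries, with small subunit genes on the left and large subunit genes on the right in order of mean TPM. S302A DEN replicate 3 is the highest library in every row shown. WT untreated replicate 2 is lowest for 57 of the 76 genes and below both others of its group for 75 (42.1% of all genes).

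Some genes were tightly held within groups and others were not. Without S302A DEN replicate 3, the within-group SD of log2(TPM + 1) was smallest for Rpl7 (0.092), Rpl9 (0.097), Rplp0 (0.099), Rpl4 (0.10) and Rpl5 (0.11), and its median over the 76 was 0.16. It was largest for Rps29 (0.39), Rpl36 (0.29), Rps27 (0.23), Rpl37a (0.22) and Rpl13a (0.22). Rps29 stood at 1517, 804 and 1232 TPM in untreated wild-type livers, at 1235, 1648 and 1503 TPM after DEN, at 871, 868 and 1053 TPM in untreated S302A livers and at 1709, 871 and 1963 TPM after DEN. Its replicates in untreated wild-type and in DEN S302A livers differed by more than its group means did (931 to 1514 TPM), and those of the other groups by less. S302A DEN replicate 2 was level with the untreated S302A livers.

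The effect of DEN on wild-type liver was compared first. Of the 76 genes, 71 were higher after DEN, where 70.3% of all genes tested were higher. The median difference was 0.19 on the log2(TPM + 1) scale over the 76 genes (0.19 in each subunit) and 0.13 over all genes. No gene of the 76 passed the threshold of 0.05 in limma with Benjamini-Hochberg adjustment, where 0.132% of all genes passed; the smallest adjusted p was 0.675, and 0 of the 76 had an unadjusted p under 0.05, against 6.89% of all genes in the higher direction. When S302A DEN replicate 3 was left out, 12 of the 76 had an unadjusted p under 0.05, all higher (19.0% of all genes), the smallest adjusted p was 0.0870 and 0 passed (2.17% of all genes did). With only the 6 wild-type libraries in the fit, 8 had an unadjusted p under 0.05, all higher (17.4% of all genes). With array quality weights, which down-weight variable libraries, 10 of 76 passed, where 17.0% of all genes passed. In 16 genes the 3 DEN libraries lay above the 3 untreated ones, and in 0 below, against 21.7% and 3.21% of all genes. The direction of the median rested on the scaling: it was 0.01 after median-of-ratios scaling and -0.08 after quantile normalization, where the median over all genes was -0.02 and -0.0033. Its size rested on single untreated libraries, at 0.0786 (55 of 76 higher) without WT untreated replicate 2 and 0.294 without WT untreated replicate 1.

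The largest wild-type differences belonged to Rplp1 and Rps2. Rplp1, an acidic stalk protein, had 1077, 720 and 977 TPM in untreated livers and 1383, 1380 and 1298 TPM after DEN, a log2 difference of 0.57 ± 0.31 (SE; adjusted p = 0.683 in limma). Rps2, a protein of the mRNA entry region of the small subunit, had 533, 538 and 515 TPM in untreated livers and 736, 699 and 864 TPM after DEN, a difference of 0.53 ± 0.28 (SE; adjusted p = 0.675 in limma). In both genes the groups did not overlap. Next in size were Rpl8 (0.41), Rps9 (0.41) and Rpl18 (0.39), and the lowest differences were those of Rpl39 (-0.08), Rps24 (-0.03), Rpl30 (-0.02), Rpl35a (-0.01) and Rpl22 (-0.0038).

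In S302A livers all 76 genes were higher after DEN with 12 libraries, where 79.2% of all genes tested were higher. The median difference was 0.57 (0.58 over small and 0.55 over large subunit genes) against 0.27 over all genes. Without S302A DEN replicate 3 it was 0.22, with 74 of 76 genes higher, against 0.00 and 49.3% over all genes. After median-of-ratios scaling it was 0.25 with 12 libraries and 0.21 with 11. No gene of the 76 passed the threshold in limma, where 0.619% of all genes passed; the smallest adjusted p was 0.212, and 35 of the 76 had an unadjusted p under 0.05, all higher, against 13.8% of all genes. That count rested on single libraries: it was 7 without S302A DEN replicate 3 (8.37% of all genes) and 72 without S302A DEN replicate 2 (34.1%). It was 7, 5 and 22 without S302A untreated replicate 1, 2 and 3 (8.12%, 1207 of 12059 and 7.86% of all genes), and 3 with only the 6 S302A libraries in the fit (6.26%). With median-of-ratios scaling 1 passed, Rpl3, where 5.37% of all genes passed, and with array quality weights 10, where 13.3% did. The groups did not overlap in 36 genes that were higher and in 0 that were lower, against 15.8% and 2.68% of all genes.

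Rpl39, a very small protein lining the exit tunnel, had the largest difference in S302A livers. It had 507, 575 and 635 TPM in untreated S302A livers and 797, 719 and 2044 TPM after DEN, a difference of 0.89 ± 0.32 (SE; adjusted p = 0.220 in limma) with 12 libraries and 0.41 ± 0.16 (SE; adjusted p = 0.204) without replicate 3. The groups did not overlap. In wild-type livers the same gene had 829, 635 and 750 TPM untreated and 734, 640.5 and 718 TPM after DEN, and those groups overlapped. The difference between the genotypes in its DEN response, 0.96 ± 0.46 (SE), was the largest among the 76 genes but did not pass (adjusted p = 0.975 in limma; 0.48 and adjusted p = 0.322 without replicate 3).

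After Rpl39, the next in S302A livers were Rplp0 (0.86), Rpl12 (0.82), a protein at the base of the stalk, Rps12 (0.82) and Rpl3 (0.81), and the lowest were Rpl22 (0.27), Rpl27a (0.29), Rpl36 (0.30), Rpl35a (0.32) and Rps15 (0.39). Rpl22 and Rpl36 were at -0.04 and -0.05 without S302A DEN replicate 3. Rpl22, which binds RNA outside the ribosome as well, had 56.0, 54.8 and 60.0 TPM in untreated S302A livers and 58.3, 52.8 and 105 TPM after DEN.

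**Figure D3:**
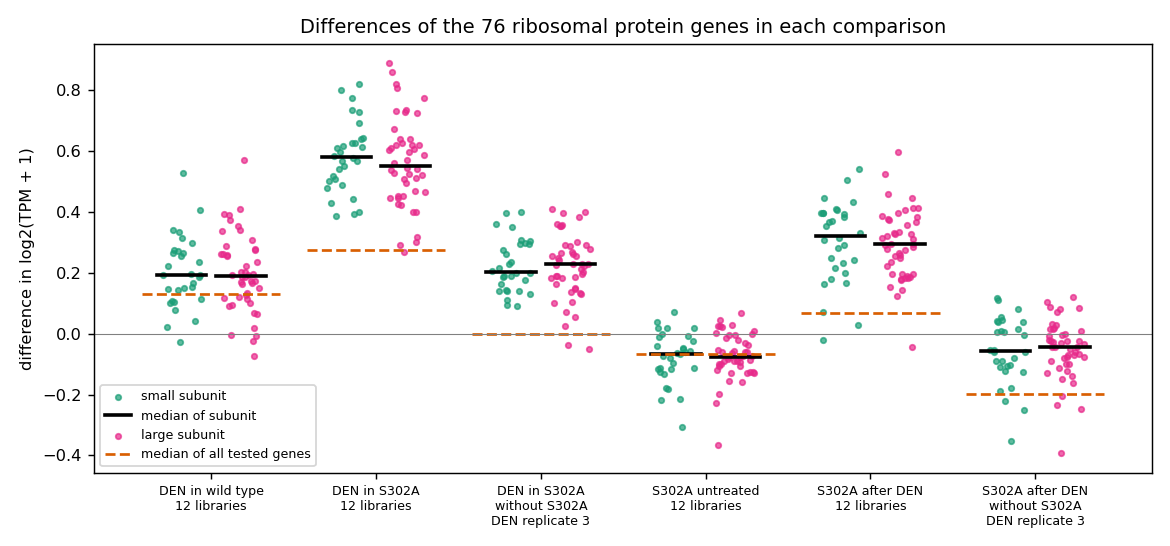
Difference in log2(TPM + 1) for each of the 76 genes in the comparisons of the design, small and large subunit apart, with the subunit medians (black) and the median of all genes tested (dashed). Points are genes; with 12 libraries the medians for DEN in S302A are 0.58 and 0.55, and without S302A DEN replicate 3 the median of the 76 genes is 0.22 against 0.00 for all genes.

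Averaged over the genotypes, all 76 genes were higher after DEN (80.7% of all genes), with a median of 0.37 against 0.21 over all genes. Without S302A DEN replicate 3, 75 were higher (62.6% of all genes) and the medians were 0.20 and 0.07. The smallest adjusted p was 0.146 in limma, so that 0 of 76 passed, where 1.34% of all genes did, and 25 of the 76 had an unadjusted p under 0.05, against 17.2% of all genes in the higher direction. Leaving out 1 library put that count between 5, without WT untreated replicate 2 (11.9% of all genes), and 68, without S302A DEN replicate 2 (33.5%). Without S302A DEN replicate 3, Rplp0 and Rpl3 passed, where 5.55% of all genes did; without S302A DEN replicate 2, 6 passed (8.59% of all genes did): Rpl18, Rpl3, Rplp0, Rplp1, Rps2 and Rps29. With array quality weights, in which S302A DEN replicate 3 received a weight of 0.0498, 52 passed, where 26.2% of all genes did, and after median-of-ratios scaling 1 passed, Rpl3, where 5.84% of all genes did.

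Rpl3, a protein near the peptidyl transferase centre, was called in this comparison under 5 settings, more than any other of the 76 genes. Its levels were 224, 159 and 198 TPM in untreated and 254, 247 and 254 TPM in DEN wild-type livers, and 172, 192 and 177 TPM in untreated and 260, 218 and 555 TPM in DEN S302A livers. Only WT untreated replicate 1 (224 TPM) overlapped with a DEN library, S302A DEN replicate 2 (218 TPM). The average difference was 0.60 ± 0.20 (SE; adjusted p = 0.154 in limma) with 12 libraries, 0.40 ± 0.10 (SE; adjusted p = 0.0487) without S302A DEN replicate 3, and 0.30 (adjusted p = 0.0362) when median-of-ratios scaling was added to that. Over all settings its adjusted p ran from 0.00331 to 0.320.

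In 3 genes every DEN library of either genotype lay above every untreated library: Rplp0, Rpl10a and Rpl41, against 3.07% of all genes. In none was every DEN library lower, against 0.248% of all genes. Rpl41 had 1052, 896 and 1081 TPM in untreated and 1431, 1319 and 1176 TPM in DEN wild-type livers, and 1005, 1005 and 1161 TPM in untreated and 1327, 1272 and 2228 TPM in DEN S302A livers. Its gap between the lowest DEN and the highest untreated library was narrow, 1176 against 1161 TPM. Rpl10a, a protein of the L1 stalk, had 219 to 286 TPM in the 6 untreated and 301.7 to 710 TPM in the 6 DEN libraries. The average differences were 0.47 ± 0.16 for Rpl41 (SE; adjusted p = 0.156 in limma) and 0.48 ± 0.19 for Rpl10a (SE; adjusted p = 0.205), and neither passed without S302A DEN replicate 3 (adjusted p = 0.0725 and 0.0979).

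**Figure D4:**
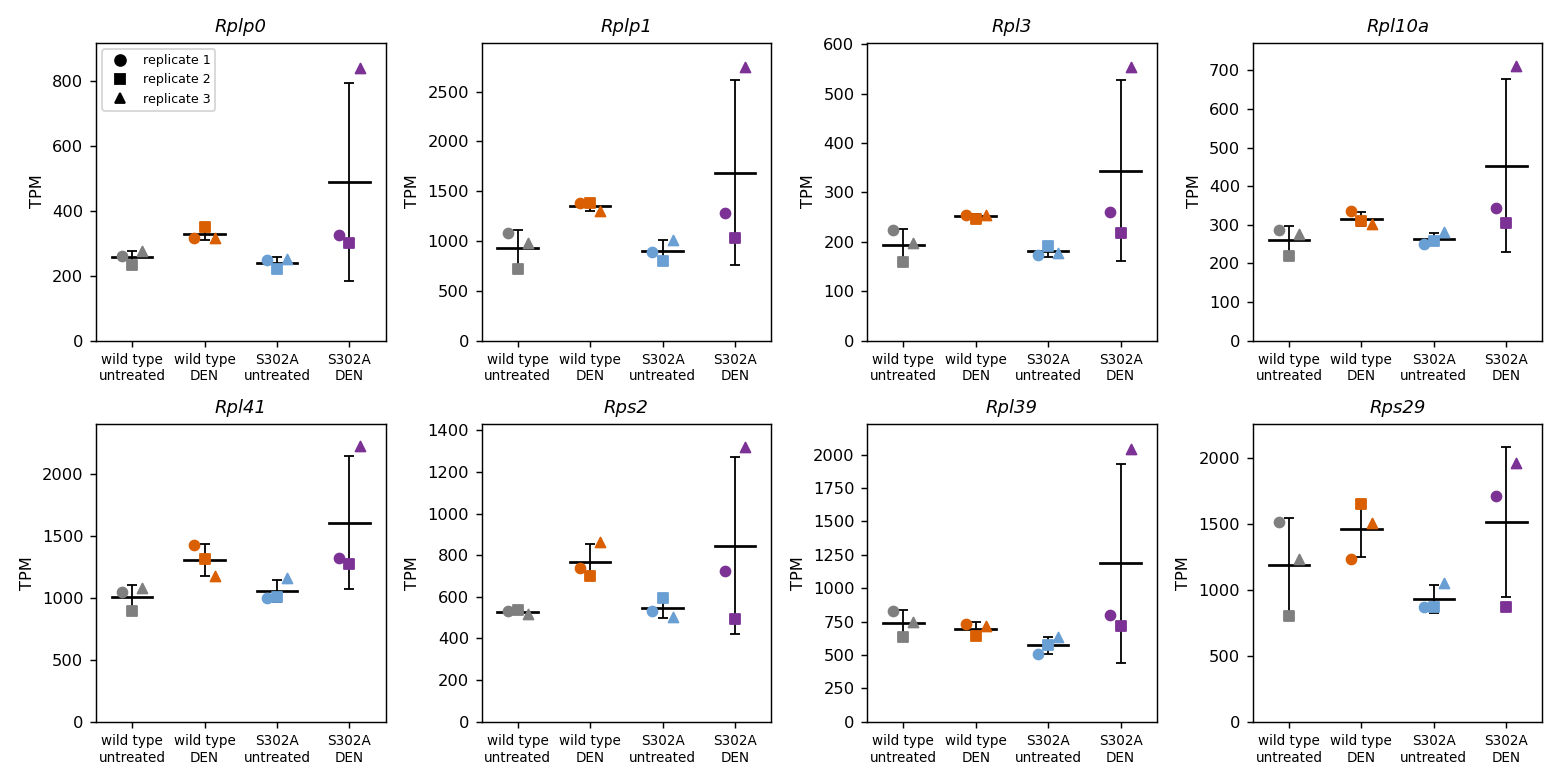
TPM of 8 ribosomal protein genes in each library, with group means (bars) and SD (error bars, n = 3). For Rplp0, Rpl10a and Rpl41 the 6 DEN libraries lie above the 6 untreated ones, and S302A DEN replicate 3 is the highest library in all 8 panels.

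The stalk that recruits elongation factors to the large subunit is built from Rplp0, a single copy often used as a reference gene in PCR, and dimers of Rplp1 and Rplp2. Rplp0 had 261, 233 and 275 TPM in untreated and 318, 349 and 316 TPM in DEN wild-type livers, and 249, 222 and 250.3 TPM in untreated and 326, 302.2 and 843 TPM in DEN S302A livers. The DEN and untreated libraries did not overlap in either genotype, and S302A DEN replicates 1 and 2 were close to the DEN libraries of wild type. The difference was 0.35 ± 0.31 in wild type and 0.86 ± 0.31 in S302A (SE; adjusted p = 0.881 and 0.219 in limma), and 0.38 ± 0.12 in S302A without replicate 3 (adjusted p = 0.138). Averaged over the genotypes it was 0.61 ± 0.22 (SE; adjusted p = 0.173), and 0.37 ± 0.083 without that library (adjusted p = 0.0316), while over all settings the adjusted p ran from 0.00588 to 0.321.

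Rplp1 had 893, 803 and 1011 TPM in untreated and 1284, 1030 and 2748 TPM in DEN S302A livers, again without overlap. S302A DEN replicate 2 (1030 TPM) lay just above the highest untreated S302A library. Its average DEN difference was 0.67 ± 0.22 (SE), the largest of the 76 (adjusted p = 0.146 in limma), and 0.46 ± 0.13 without S302A DEN replicate 3 (adjusted p = 0.0579). Rplp2 had 400, 339 and 413 TPM in untreated and 434, 539 and 484 TPM in DEN wild-type livers, and 416, 338 and 397 TPM in untreated and 501, 399 and 1025 TPM in DEN S302A livers, where the groups overlapped. Its average difference was 0.48 ± 0.20 (SE; adjusted p = 0.224 in limma).

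Measured against the other ribosomal protein genes of the same library, which sets aside the scale of the library, 3 genes had DEN libraries that did not overlap the untreated ones. With each level taken as log2 TPM minus the median of the 76 genes in its library, Rplp0 lay from -1.004 to -0.67 in the 6 untreated and from -0.65 to -0.28 in the 6 DEN libraries. Rplp1 lay from 0.957 to 1.117 in the untreated and from 1.19 to 1.52 in the DEN libraries. These were the only 2 of the 76 in which the DEN libraries were all higher (0.215% of all genes on this scale). Rpl27a, a large subunit protein, was the only one in which they were all lower (1.60% of all genes), from -0.29 to -0.19 untreated and from -0.79 to -0.34 after DEN, the lowest value being that of S302A DEN replicate 3. On the log2(TPM + 1) scale the average DEN difference of Rpl27a was 0.16, so it was lower only beside the other members. The shares of all genes depend on the scale. With values scaled to the member median, the median average DEN difference was 0.016 over the 76 and -0.0911 over all genes. On the TPM scale 3.07% of all genes had all DEN libraries higher and 0.248% had all lower. The differences in the mean on the relative scale were 0.25, 0.31 and -0.20 for Rplp0, Rplp1 and Rpl27a. Without S302A DEN replicate 3 they were 0.20, 0.31 and -0.13. Rpl3 (0.24) was next among the higher and Rpl22 (-0.22) and Rpl35a (-0.21) were the lowest, with overlapping groups. In the limma fit on values scaled in this way, 0 of the 76 passed in each of the 7 contrasts. Of all 12120 genes, 3 (average S302A difference) to 612 (DEN in S302A) passed, and 313 did so for the average DEN difference. In the average DEN comparison 4 of the 76 had an unadjusted p under 0.05, 3 of them higher, against 2377 of all 12120 genes.

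**Figure D5:**
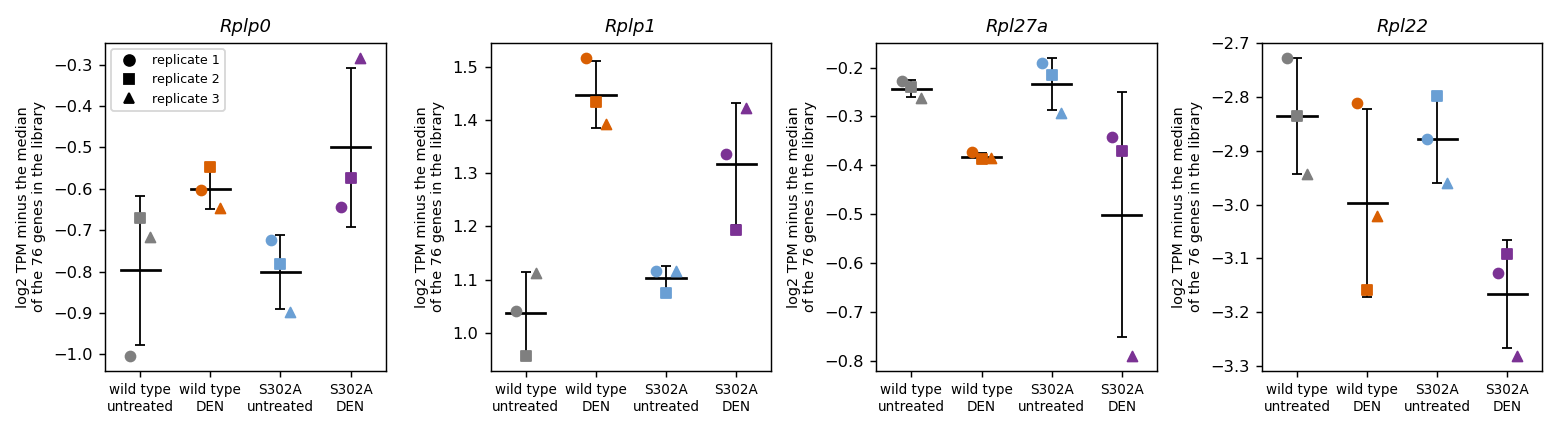
Level of Rplp0, Rplp1, Rpl27a and Rpl22 relative to the median of the 76 genes in the same library (log2 scale), with group means (bars) and SD (error bars, n = 3). The DEN libraries of both genotypes lie above the untreated ones for Rplp0 and Rplp1 and below them for Rpl27a, while those of Rpl22 overlap.

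Members with known roles beside the ribosome were read next to the rest. Rpl5 and Rpl11 form a particle with 5S ribosomal RNA that can bind and block Mdm2, the ligase that removes p53. Rpl5 had 188 to 241 TPM in the 6 untreated livers, 219 to 248 TPM in DEN wild-type and 242, 223 and 478 TPM in DEN S302A livers, and Rpl11 had 552 to 745 TPM in the untreated, 703 to 791 TPM in DEN wild-type and 796, 614 and 1263 TPM in DEN S302A livers. Their average DEN differences were 0.37 and 0.34, beside the median of 0.37 over the 76 genes. Rps6, the substrate of the S6 kinases downstream of mTOR, had 370.5, 263 and 323 TPM in untreated and 344, 394 and 404 TPM in DEN wild-type livers, and 307, 304 and 335 TPM in untreated and 403, 377 and 780 TPM in DEN S302A livers. Its average difference was 0.45 ± 0.18 (SE; adjusted p = 0.205 in limma), and 0.285 without S302A DEN replicate 3 (adjusted p = 0.124).

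The 20 members whose human counterparts are mutated in Diamond-Blackfan anaemia, a failure of red cell formation, had median differences of 0.16 for DEN in wild type (18 of 20 higher) and 0.57 for DEN in S302A (20 of 20), and 0.21 in S302A without replicate 3. Rps19, the gene most often mutated there, had 446, 305 and 393 TPM in untreated and 419.6, 493 and 482 TPM in DEN wild-type livers, and 358, 346 and 411 TPM in untreated and 488, 371 and 1281 TPM in DEN S302A livers, with S302A DEN replicate 3 at 2.98 times the mean of the other 2. The 29 members with a small nucleolar RNA gene inside them (55 such genes, 5 of them in Rpl4) had a median of 0.61 for DEN in S302A and the other 47 had 0.54. Without replicate 3 the values were 0.25 and 0.20. The 4 members on the X chromosome (Rpl10, Rpl36a, Rpl39 and Rps4x) had a median of 0.14 for DEN in wild type and 0.68 for DEN in S302A, 0.25 without replicate 3.

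The S302A genotype was compared in untreated livers next. Of the 76 genes 13 were higher in S302A than in wild type, where 31.5% of all genes were higher, and the median difference was -0.07 over the 76 and over all genes alike. None passed in limma (0.0330% of all genes passed), and the smallest adjusted p was 1. None had an unadjusted p under 0.05, against 1.48% of all genes in either direction. With array quality weights 0 of the 76 passed as well, where 5 of all 12120 genes did. Only in Rpl39 did the groups not overlap, with S302A (507 to 635 TPM) below wild type (635 to 829 TPM). Of all genes 5.27% did not overlap in that direction and 1.69% in the other. The 2 groups met at S302A untreated replicate 3 (635.1 TPM) and WT untreated replicate 2 (635.4 TPM). The difference of Rpl39 was -0.36 ± 0.32 (SE; adjusted p = 1 in limma), followed by those of Rps29 (-0.31), Rpl13a (-0.23), Rps20 (-0.22) and Rps24 (-0.21). At the other end Rps14 and Rpl41 (0.07 each), Rpl29 (0.05), Rps2 (0.04) and Rpl10a (0.03) were the highest. The median of the 76 was 0.02 after median-of-ratios scaling, 0.0387 (55 of 76 higher) without WT untreated replicate 1 and -0.191 (1 higher) without WT untreated replicate 2, so its sign rested on the scaling and on 1 library.

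After DEN, the comparison of S302A with wild type rested on a single library and on the scaling. With 12 libraries 74 of the 76 genes were higher in S302A (60.0% of all genes), with a median of 0.30 against 0.07 over all genes. Without S302A DEN replicate 3, 24 were higher (21.0% of all genes), with a median of -0.05 against -0.20. After median-of-ratios scaling, however, the median of the 76 was 0.26 with 12 libraries and 0.22 with 11, so the direction without that library rested on the scaling. None passed in limma (0.380% of all genes passed), and the smallest adjusted p was 0.723. None had an unadjusted p under 0.05, against 7.83% of all genes in either direction. Under the other settings run, 0 of the 76 passed as well. Of all genes, between 4 of 11558, with only the libraries of the contrast, and 1996 of 12120, with array quality weights, passed there. Without S302A DEN replicate 3, 700 of all 11883 genes passed. The number of the 76 with an unadjusted p under 0.05, all higher, was 23 after median-of-ratios scaling (8.61% of all genes) and 56 after quantile normalization (7.91%). It was 21 without S302A DEN replicate 2 (10.8%), where the median was 0.526. Rps24 and Rps27 were the genes whose groups did not overlap, both higher in S302A, against 3.23% of all genes in that direction and 6.19% in the other. Rps24 had 431, 471 and 455 TPM in DEN wild-type and 477, 498 and 889 TPM in DEN S302A livers, a difference of 0.40 ± 0.23 (SE; adjusted p = 0.768 in limma), and 0.11 without replicate 3. Rps27 had 830, 897 and 938 TPM and 977, 948 and 1494 TPM, a difference of 0.33 ± 0.24 (SE; adjusted p = 0.834), and 0.12 without replicate 3.

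The largest differences after DEN were those of Rpl39 (0.60), Rps12 (0.54), Rpl12 (0.53), Rps20 (0.50) and Rpl6 (0.46), which were 0.12, 0.08, 0.10, 0.05 and 0.08 without S302A DEN replicate 3. The lowest were those of Rpl36 (-0.04), Rps29 (-0.02), Rps2 (0.03), Rps15 (0.07) and Rpl8 (0.12). In the test of the difference between the genotypes in their DEN response, 0 of the 76 genes passed in limma (0.0413% of all genes passed), 0 had an unadjusted p under 0.05 (5.06% of all genes did) and the smallest adjusted p was 0.975. The median of this interaction was 0.37, 0.03 without S302A DEN replicate 3 and 0.582 without S302A DEN replicate 2, where 8 had an unadjusted p under 0.05, all higher (7.19% of all genes). After median-of-ratios scaling it was 0.24 with 12 libraries and 0.20 (69 of 76 higher) without S302A DEN replicate 3, so its size without that library rested on the scaling. With 12 libraries it was 0.43 after quantile normalization and 0.05 with array quality weights. The number with an unadjusted p under 0.05, all higher, was 10 after median-of-ratios scaling, 27 after quantile normalization and 1 with array quality weights. Of all 12120 genes, 662, 666 and 679 had such a p in the higher direction. Averaged over treatments, the genotype difference had a median of 0.12 (74 of 76 higher, 49.5% of all genes), and of -0.06 (9 higher, 17.8% of all genes) without S302A DEN replicate 3. After median-of-ratios scaling the median was 0.14 with 12 libraries and 0.11 (74 higher) with 11, so the direction without that library rested on the scaling. With 12 libraries 0 passed (0.0165% of all genes did) and 0 had an unadjusted p under 0.05 (4.41% of all genes did).

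Among core ribosomal proteins whose symbols have another form, Fau (330 to 809 TPM), Rpsa (253 to 756 TPM) and the gene for Rack1 (212 to 652 TPM; listed as Gnb2l1) lay in the range of the 76. Fau encodes a small subunit protein fused to a ubiquitin-like protein, Rpsa a small subunit protein also known as a laminin receptor, and Gnb2l1 a scaffold on the small subunit. Their differences after DEN were 0.495, 0.08 and 0.24 in wild type and 0.19, 0.59 and 0.62 in S302A, in the order named. None of these passed in limma, with adjusted p = 0.650, 0.989 and 0.932 in wild type and 0.672, 0.329 and 0.308 in S302A.

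Paralogs of the standard subunits were read apart, and Rpl36al and Rps4l had DEN libraries on opposite sides of the untreated ones. Rpl36al, a close relative of Rpl36a, had 488 to 601 TPM in untreated and 625 to 671 TPM in DEN wild-type livers, and 444 to 491 TPM in untreated and 631 to 976 TPM in DEN S302A livers, so that all 6 DEN libraries were above all 6 untreated ones. Rps4l, a relative of Rps4x, had 16.1 to 18.2 TPM in untreated and 5.56 to 10.2 TPM in DEN wild-type livers, and 14.1 to 22.4 TPM and 8.53 to 12.5 TPM in S302A livers, all DEN libraries being lower. Neither passed in the main fit with 12 libraries (average differences 0.50 and -0.83, adjusted p = 0.0856 and 0.0512 in limma), and both passed without S302A DEN replicate 3 (0.42 and -0.79, adjusted p = 0.0293 and 0.0316). Both also passed with all 12 libraries and array quality weights (adjusted p = 0.00121 and 0.00354 in limma). Among other fits with 12 libraries, Rps4l passed after median-of-ratios scaling (adjusted p = 0.0294) and quantile normalization (adjusted p = 0.0348). Rpl36al passed after neither. Over all settings the adjusted p ran from 0.00121 to 0.582 for Rpl36al and from 0.00354 to 0.222 for Rps4l. The other paralogs were Rpl22l1, Rps27l, Rpl7l1 and Rpl39l, of which 0 passed, while Rpl3l and Rpl10l stood at the floor in all 12 libraries.

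The machinery around the ribosome gave few called genes. Of 38 ribosome biogenesis genes, all were higher after DEN in S302A (median 0.57), where 79.2% of all genes were higher. Without replicate 3, 35 were higher there (median 0.37), against 49.3% of all genes. In wild type 33 were higher (median 0.20), against 70.3% of all genes. Averaged over the genotypes 2 rose, Nop2, an RNA methyltransferase of the large subunit precursor (0.83, adjusted p = 0.0400 in limma), and Rrp12, an export factor of both precursors (0.80, adjusted p = 0.0492), where 1.34% of all genes passed, and 8 passed without S302A DEN replicate 3, where 5.55% of all genes did. Nop2 had 5.80 to 6.48 TPM in untreated and 7.43 to 11.3 TPM in DEN wild-type livers, and 5.41 to 6.74 TPM and 10.2 to 17.5 TPM in S302A livers, and the calls of Nop2 and Rrp12 were both lost when any 1 of the 10 libraries other than S302A DEN replicates 2 and 3 was left out.

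Gas5, a non-coding TOP transcript that hosts many small nucleolar RNAs, had the clearest difference in these lists. It had 118, 126 and 93.5 TPM in untreated and 162, 154 and 160 TPM in DEN wild-type livers, and 95.8, 83.5 and 95.1 TPM in untreated and 239, 219 and 340 TPM in DEN S302A livers. It rose in S302A livers by 1.505 on the log2 scale (adjusted p = 0.00525 in limma), and by 1.32 without replicate 3 (adjusted p = 0.00143), while the wild-type difference of 0.50 did not pass (adjusted p = 0.490). Averaged over the genotypes it also rose (1.004, adjusted p = 0.0102). The call in S302A was lost with no filter on low values (adjusted p = 0.0783) and with only the 6 S302A libraries in the fit (adjusted p = 0.0998). The other 16 TOP mRNAs, among them elongation factors and Tpt1, did not pass in either genotype, and the list of 17 had a median of 0.17 in wild type and 0.45 in S302A (0.14 without replicate 3).

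Among 76 mitochondrial ribosomal proteins, which build the separate ribosome of that organelle, 69 were higher after DEN in wild type (median 0.27). In S302A 74 were higher (median 0.34, and 0.15 without replicate 3). Of all genes, 70.3% and 79.2% were higher, with medians of 0.13 and 0.27, and 0.00 in S302A without replicate 3. Mrps12 rose on average (0.68, adjusted p = 0.0435 in limma), where 1.34% of all genes passed. Of 25 initiation factors, 21 were higher in wild type and 22 in S302A, and 0 passed with 12 libraries. Of 21 genes of growth signalling to the ribosome, Ddit4, an inhibitor of mTOR complex 1, rose on average (1.55, adjusted p = 0.0361 in limma), from 1.55 to 2.38 TPM in the 6 untreated to 3.84 to 22.6 TPM in the 6 DEN livers. The calls of Mrps12 and Ddit4 were each lost when any 1 of those 10 libraries was left out.

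RNAs of the ribosome's RNA side differed most in the untreated S302A livers. Rn45s, the ribosomal RNA precursor, had 414 to 456 TPM in untreated and 199 to 540 TPM in DEN wild-type livers, and 2180, 2851 and 1231 TPM in untreated and 271, 341 and 335 TPM in DEN S302A livers. It fell after DEN in S302A (-2.65, adjusted p = 0.00916 in limma), and so did Rpph1, the RNA of ribonuclease P (-3.03, adjusted p = 0.00180), and Rmrp, the RNA of ribonuclease MRP, which cuts the ribosomal RNA precursor (-2.59, adjusted p = 0.0319). Rpph1 was also higher in untreated S302A than in untreated wild type (2.81, adjusted p = 0.0184), at 17.2, 25.7 and 8.03 TPM against 1 to 2.15 TPM. How the libraries selected RNA is not given in the sources used here, and its part in these values was not tested. The call of Rn45s in S302A was lost without S302A untreated replicate 1 (adjusted p = 0.0568) and with no filter on low values.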

How the data were processed

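RNA sequencing of 12 liver libraries (4 groups of 3, grouped by genotype and treatment as labelled) was deposited as TPM per gene symbol. Per the submitters' processing notes, TPM were estimated with kallisto against mm10; its version, the annotation release and the RNA selection are not given in the sources used here. Per the labels' protocols, libraries were made with TruSeq RNA kits from total RNA. In the deposited TPM no value lay below 1, and library totals exceeded the nominal TPM total by 16116 to 18237, so 1 was read as a floor. TPM keeps no depth, so counting precision is unknown.

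Genes above 1 TPM in at least 3 of 12 libraries were kept (12120). On log2(TPM + 1), limma 3.58.1 (R 4.3.3) fitted the 4 group means together, with a mean-variance trend and 8 residual df. Contrasts (7) covered DEN within each genotype, S302A against wild type within each treatment, the interaction and both averages. Tests were two-sided, with Benjamini-Hochberg adjustment over all genes and a threshold of 0.05. A fold on this scale understates that of low genes. The comparisons share control samples. The fit was tested on simulated data.

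The members, the gene lists and the tests were chosen with earlier results of these data known. Lists were given by counts and medians, without a test. Genes were named by a rule: called members, the 5 highest and 5 lowest members in each contrast, in mean TPM, in within-group SD and in likeness, members with a known role beside the ribosome, and in other lists the called genes and up to 4 with the smallest p. Members whose groups do not overlap, the core proteins with other symbols and the near copies were named after their values were seen. The heat map leaves out 1 gene, which is not reported here. Near copies were found with BLAST 2.17.0 and GENCODE M21. Alternatives were other pseudocounts, filters, scalings, weights, library sets, the replicate block and each library left out; scaling to the member median, and scalings without S302A DEN replicate 3, were added after seeing the data.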

Additional observations from a re-analysis of the deposited data

How the results depend on the processing

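Calls and medians of the 76 genes moved as follows. For DEN in wild type, the median of the 76 genes (0.19) was 0.0115 after median-of-ratios scaling (0.0092 without S302A DEN replicate 3) and -0.0796 after quantile normalization, and 10 members passed with array quality weights. For DEN in S302A, 1 passed with median-of-ratios scaling and 10 with array quality weights. For the average DEN difference, 1 passed with median-of-ratios scaling, with all 12 libraries or 11, 52 with array quality weights, and 0 to 6 when 1 library was left out. Scaling to the member median, which sets the median near 0 by its construction, gave 0.0133 and 0.0247 (12 and 11 libraries) for DEN in S302A, -0.0283 and -0.0089 for the interaction and 0.016 with 12 libraries for the average DEN difference. Single libraries moved these medians by over 1.5 times as well. DEN in wild type was at 0.294 and 0.0786 without WT untreated replicate 1 and 2. The S302A difference in untreated livers (-0.07) was at 0.0387 and -0.191 without those libraries, and at -0.0284 and -0.119 without S302A untreated replicate 2 and 3. The average S302A difference (0.12) was at 0.0569 without WT untreated replicate 2 and at 0.179, 0.223 and -0.0621 without S302A DEN replicate 1, 2 and 3. Leaving out S302A DEN replicate 2 put the S302A difference after DEN (0.30) at 0.526 and the interaction (0.37) at 0.582; without replicate 3 they were at -0.0469 and 0.0261, and DEN in S302A (0.57) and the average DEN difference (0.37) were at 0.218 and 0.202. The 25 members with an unadjusted p under 0.05 for the average DEN difference became 5 to 12 without WT untreated replicate 2 or 3, WT DEN replicate 2 or 3, or S302A untreated replicate 1 or 2. Of all genes, 1404 of 12059 to 1734 of 12077 had such a p in the higher direction in these fits. The count of members was 39 without S302A DEN replicate 1 (2269 of all 12047 genes) and 68 without replicate 2 (33.5% of all genes). Apart from that construction, the cause was not tested. In the fits with a replicate block 0 of the 76 passed in every contrast, with medians as without it. Of all 12120 genes, 3 (S302A untreated) to 87 (average DEN difference) passed with the block. Samples with the same number correlated at -0.187 to 0.282 (median 0.0605, 18 pairs) and others at -0.230 to 0.255 (median -0.0233, 36 pairs). The ranges overlapped, and with 3 libraries a group these values cannot decide whether the numbers pair the samples. With no filter on low values the calls of Gas5, Nop2, Rrp12, Mrps12, Ddit4 and Rn45s were lost. A fit with only the libraries of the contrast has no value for the interaction and the averages. Depth is unknown, and with 3 libraries a group the 76 medians rest on few samples.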

Other observations

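The 76 genes were spread over 19 chromosomes in the annotation, with 14 on chromosome 7 and 7 on chromosome 11. Over the 76 genes, mean TPM and annotated coding length had a Spearman rank correlation of -0.40, a description across genes of the same libraries, with coding lengths from 138 to 1257 bases and a median of 462. The paralog Rpl39l stood at the floor of 1 TPM in 9 libraries and at 12.3 and 11.5 TPM in WT DEN replicates 2 and 3 and 5.70 TPM in S302A untreated replicate 3. The near copy Rps15a-ps6 ranged from 2.19 to 22.7 TPM over the 12 libraries, while Rps15a itself had 20.4 to 29.3 TPM in 11 libraries and 60.1 TPM in S302A DEN replicate 3.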
